A study of Mus musculus with 3 samples.

Results

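The genes described here are 7 matrix metalloproteinases, namely Mmp2, Mmp3, Mmp9, Mmp11, Mmp13, Mmp14 and Mmp23, and 3 tissue inhibitors of metalloproteinases, Timp1, Timp2 and Timp3. They were chosen by name as one protease and inhibitor family, and by the RMA values of Timp1, which had already been seen higher in uncv null skin. Their 23 probe sets are those that the platform annotation pairs with exactly 1 of these symbols, out of 34945 probe sets with a single gene symbol, and the 10 genes are part of 18193 that the array names. The data are expression arrays of dorsal skin from 4-day-old female BALB/cA mice. There was 1 array of a wild type mouse (uncv +/+) and 1 array each of 2 uncv null mice (uncv -/-), all born to heterozygous parents and described as sisters. The uncovered mutation arose spontaneously, leaves mice with little hair, and has been mapped to Rhbdf2, the gene of the inactive rhomboid protein iRhom2. The Rhbdf2 probe set read 5.83 for wild type, 6.29 for uncv null 1 and 6.49 for uncv null 2, and whether it can report the mutation was not examined, so it does not check the genotypes.

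Matrix metalloproteinases are zinc-dependent enzymes that cleave collagens, laminins and other proteins outside the cell. Most are secreted as inactive precursors, and TIMPs block them by binding in the catalytic cleft. In skin they act in wound repair and in the growth of hair follicles and vessels through the dermis. Timp3 also inhibits ADAM17, the membrane protease that iRhom2 helps to mature. Skin RNA holds many cell types, and in such bulk samples fewer cells of a type and less RNA per cell cannot be told apart.

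Promoter sequence is shown for Timp1 and Mmp3, which read higher in each uncv null array than in wild type. Mmp13, a neighbour of Mmp3 that read under the background guide given below in every array, is set beside them for its letters alone. AP-1, the Fos and Jun dimer, is a textbook regulator of all 3. The stretches are from RefSeq on GRCm38.p6, plus strand. For Mmp3 (chr9:7445722-7445821) and Mmp13 (chr9:7272414-7272513) they are the 100 bases before the annotated start, with capitals for the AP-1 heptamer TGANTCA and for the TATA box letters TATAAA. For Timp1 (chrX:20870180-20870209) it is a window of 30 bases after the start, with capitals for TGAGTAA, a variant AP-1 heptamer.
Mmp3: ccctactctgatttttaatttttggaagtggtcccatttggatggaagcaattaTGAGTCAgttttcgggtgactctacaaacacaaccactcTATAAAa
Mmp13: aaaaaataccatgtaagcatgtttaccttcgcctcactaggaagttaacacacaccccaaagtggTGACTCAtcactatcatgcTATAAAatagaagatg
Timp1: gcggtgggtggaTGAGTAAtgcgtccagga

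The heptamer TGANTCA began 46 bases before the Mmp3 start and 35 bases before the Mmp13 start. TGAGTAA began at base 27 of Timp1. Promoter entries of 300 bases, 250 before and 50 after the start, were found for 8 of the 10 genes, and all were searched on both strands. Mmp2 and Mmp9 had no entry, so their promoters were not searched. TGANTCA was in no other member's entry, and neither was TGAGTAA. Of all 32851 promoter entries, 7.81% held TGANTCA, 2.68% held TGAGTAA and 13.6% held TATAAA. The STAT-type motif TTCNNNGAA, found in 8.3% of entries, was in both entries of Mmp23 and in no other member's. These entries overlap, and their matches are the same site on the chromosome. None of these motifs overlaps another in the stretches shown. A match is a run of letters and does not show that a factor binds there.

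All values are RMA values on the log2 scale, on which a difference of 1 is 2-fold. RMA corrects background, normalizes between arrays and summarises the probes of a probe set. Levels of different probe sets are not set against each other, since probes differ in how brightly they report. As a guide to background, the 9 probe sets of 3 Y-linked genes, whose transcripts female skin lacks, reached at most 3.65 in any array. A probe set was tested where its mean reached 5, which gave 8456 genes, each represented by its brightest probe set. The limma fit called 0 of them higher and 0 lower at an adjusted p of 0.05 (smallest adjusted p = 0.9996), a background of 0%. At an unadjusted p under 0.05 there were 245 genes, 134 higher and 111 lower. The wild type array correlated with uncv null 1 at Pearson's r of 0.972 and with uncv null 2 at 0.958, against 0.961 between the uncv null arrays. Uncv null 1 stood apart on control probe sets. Its mean over 3 probe sets of 18S ribosomal RNA was 7.93, against 3.59 in wild type and 4.26 in uncv null 2, and its Actb control was 1.23 higher at the 3' than at the 5' probe set, against 0.66 and 0.79. The spike-in controls averaged 0.70 above wild type in uncv null 1 and 0.43 above it in uncv null 2. The part of these offsets in the values below was not tested. The arrays come from separate mice by the labels, but with 1 wild type array every difference rests on that single mouse.

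Of the 10 genes, 6 had a tested probe set: Timp1, Timp2, Timp3, Mmp2, Mmp14 and Mmp23. The other 4, Mmp3, Mmp9, Mmp11 and Mmp13, had none. Of the 23 probe sets 17 passed, the dimmest of them for Mmp14 at a mean of 5.61, and the brightest that did not pass was that of Mmp11 at 4.73. Among the 6 representative probe sets, 2 (Timp1, and Timp3 by only 0.0078 for uncv null 1) read above wild type in each uncv null array, 3 (Timp2, Mmp2 and Mmp14) read below it, and Mmp23 was split. Over all tested genes, 38.8% lay above in both arrays and 26.4% below, so the counts of the family are not read as a result. None of the 6 lay at least 2-fold from wild type in both arrays, where 0.225% of all tested genes lay that far above and 0.296% that far below. The median difference was -0.11 over the 6 members and 0.04 over all tested genes. Because the members were proposed with this contrast known, their differences are given as a description with limma's moderated SE and without a test.

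**Figure D1:**
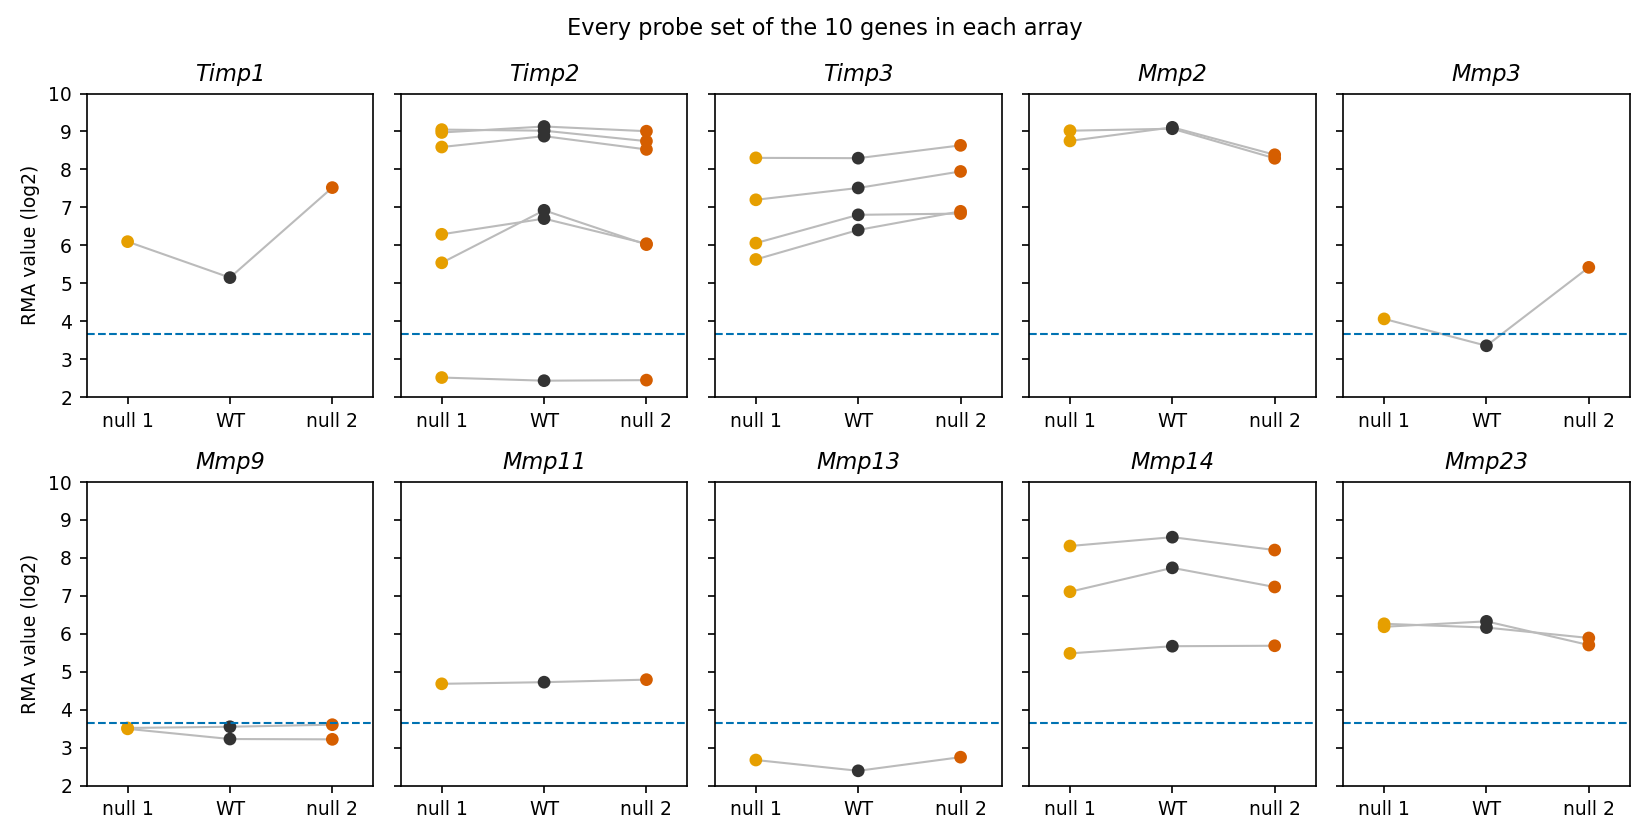
RMA log2 values of every probe set of the 10 genes (1 panel per gene), with wild type (WT, black) between uncv null 1 (light orange) and uncv null 2 (dark orange). Grey lines join the values of 1 probe set, and the dashed line is the highest value of a Y-linked probe set, 3.65. Timp1 and Mmp3 are the genes with both uncv null arrays well above wild type, while Mmp9 and Mmp13 lie under the dashed line in all 3 arrays.

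Among the inhibitors, Timp1, a secreted TIMP induced by inflammatory cytokines, had the largest difference among the 6 tested members. Its single probe set, 1460227_at, read 5.15 for wild type, 6.10 for uncv null 1 and 7.52 for uncv null 2. Both uncv null arrays were above wild type, and uncv null 2 was the highest. The differences of 0.95 and 2.37 are 1.93-fold and 5.17-fold, with a mean of 1.66 ± 0.57 (limma's moderated SE, 1 against 2 arrays), or 3.16-fold. The first of these falls just short of 2-fold. By mean difference Timp1 ranked 14 from the highest among 8456 genes. Since the family was chosen partly on these values of Timp1, its rank and its place among the members are only a description. The size is poorly fixed, since it is 2.37 when uncv null 1 is left out and 0.95 when uncv null 2 is left out. In the annotation, Timp1 lies inside the span of Syn1, a gene of neurons.

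By distance between the pairs of differences, the 5 tested genes most like Timp1 over these 3 arrays were Retn, Defb6, Lbp, Actn3 and Klk6. Retn encodes the adipocyte hormone resistin and lay 0.75 and 2.53 above wild type, a distance of 0.25 from Timp1. Defb6, a beta-defensin, lay 0.86 and 2.06 above. Lbp, the lipopolysaccharide-binding protein of the acute phase response, lay 0.79 and 2.08 above. Klk6, a kallikrein protease, lay 0.92 and 1.95 above, and Actn3, the alpha-actinin of fast muscle, 1.32 and 2.31 above. With 3 arrays this likeness is only a closeness of 2 numbers per gene.

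Timp2, a TIMP that can also bridge Mmp14 and the Mmp2 precursor and so aid its activation, was measured by 6 probe sets. The brightest, 1460287_at, read 9.13 for wild type, 8.97 for uncv null 1 and 9.01 for uncv null 2. The mean difference was -0.14 ± 0.26 (SE). The probe set furthest from wild type, 1420924_at, read 6.92, 5.54 and 6.02 in the same order, a mean difference of -1.14 ± 0.31. Of the 5 tested probe sets, 4 lay below wild type in both arrays and 1454677_at was split, at 0.03 for uncv null 1 and -0.28 for uncv null 2. The sixth, 1437081_at, stayed between 2.43 and 2.52, below the Y-linked limit. Most probe sets thus shared a side but not a size, with mean differences among the tested ones from -1.14 to -0.12.

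Timp3, the TIMP bound to the extracellular matrix, gave no common side. Its brightest probe set, 1449335_at, read 8.30 for wild type, 8.30 for uncv null 1 and 8.63 for uncv null 2, a mean difference of 0.17 ± 0.28. In the other 3 probe sets uncv null 1 was below wild type and uncv null 2 above it. The widest of these, 1419088_at, read 6.40, 5.63 and 6.90. Uncv null 2 was above wild type in all 4 probe sets, by 0.03 to 0.49. Uncv null 1, the array with the high 18S ribosomal RNA signal and the larger Actb 3' to 5' difference, was the low one in these 3 probe sets, and the part of RNA quality in that was not tested.

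**Figure D2:**
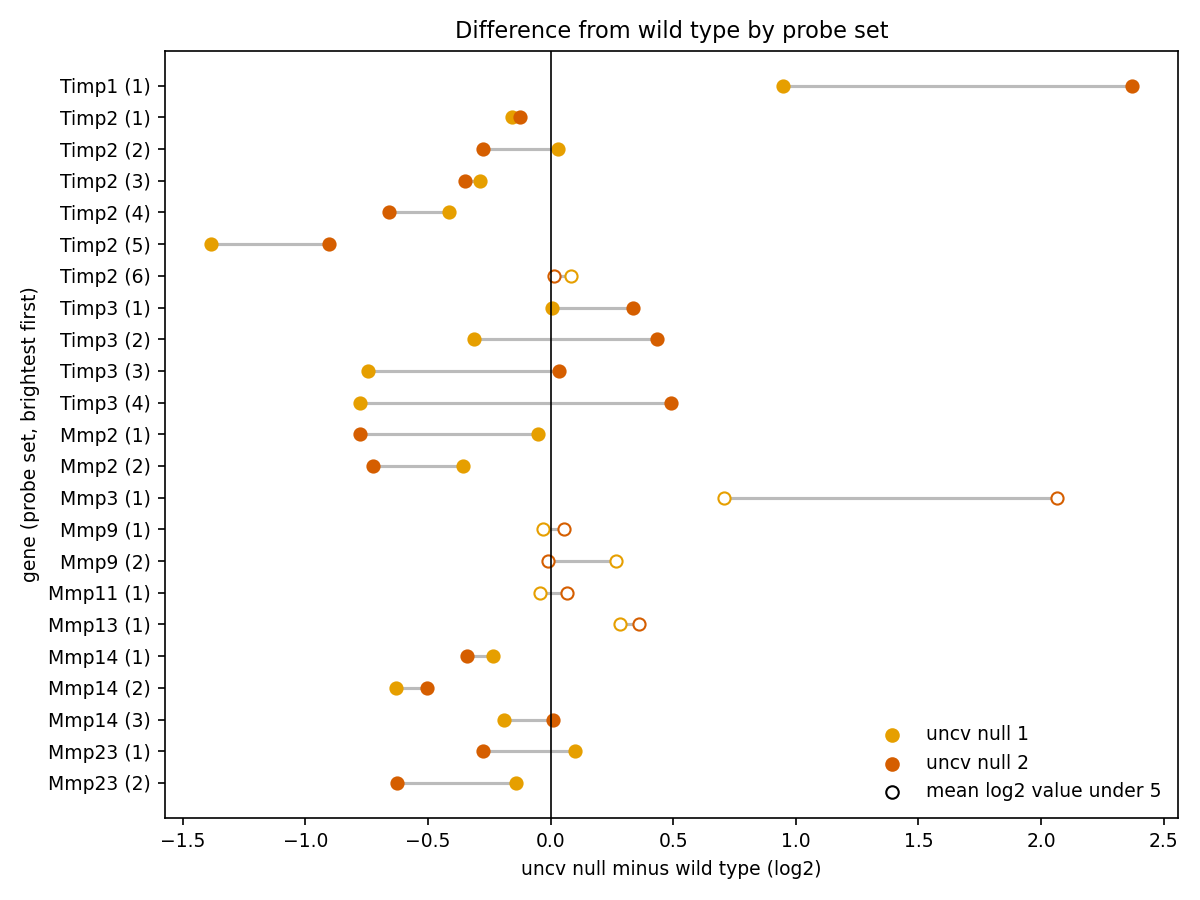
Difference from wild type on the log2 scale for each of the 23 probe sets, numbered within a gene from the brightest, with uncv null 1 in light and uncv null 2 in dark orange. Open circles mark probe sets with a mean under 5. Mmp2 and Mmp14 lie left of 0 except 1 array of the dimmest Mmp14 probe set, the 4 Timp3 probe sets straddle or touch 0, and Timp1 lies furthest right.

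The gelatinase Mmp2 and its membrane-bound activator Mmp14 read lower in most of the uncv null values. Mmp2, which is made mainly by fibroblasts in the dermis, had 2 bright probe sets. The probe set 1416136_at read 9.07 for wild type, 9.02 for uncv null 1 and 8.29 for uncv null 2, a mean difference of -0.42 ± 0.37. The second, 1439364_a_at, read 9.11, 8.75 and 8.39, a mean difference of -0.54 ± 0.29. Each uncv null array was below wild type in both probe sets, with uncv null 2 the lower, and for uncv null 1 the difference of 1416136_at was -0.05.

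Mmp14, the membrane-type protease that cleaves the Mmp2 precursor and fibrillar collagen, had 3 tested probe sets. The brightest, 1448383_at, read 8.55 for wild type, 8.31 for uncv null 1 and 8.21 for uncv null 2, a mean difference of -0.29 ± 0.26. The probe set 1416572_at read 7.74, 7.11 and 7.23, a mean difference of -0.57 ± 0.26. Here the uncv null arrays lay close together, at -0.63 and -0.50 against wild type. The dimmest, 1440920_at, read 5.67, 5.48 and 5.69 and was split. All of these differences were under 2-fold.

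Mmp23, a membrane-anchored protease that lacks the hemopexin domain usual in the family, was split by its representative probe set. That probe set, 1417281_a_at, read 6.17 for wild type, 6.26 for uncv null 1 and 5.89 for uncv null 2. The second, 1417282_at, read 6.33, 6.19 and 5.70, with both uncv null arrays below wild type and a mean difference of -0.38 ± 0.31. In both probe sets uncv null 2 was the lowest array.

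Fibroblast markers are given beside Mmp2 and Mmp14. Of 9 fibroblast markers, all tested, 6 lay below wild type in both arrays and 1, Thy1, above. Of all tested genes, 26.4% lay below and 38.8% above, which is also the background for the muscle and endothelial counts. The fibroblast medians were -0.07 for uncv null 1 and -0.49 for uncv null 2. Averaged over each gene's probe sets, 3 of the 9 lay below in both arrays, against 28.6% of all genes there. The median of the markers was then -0.20 in place of -0.26. Their mean log2 level by the brightest probe sets was 9.88 for wild type, 9.83 for uncv null 1 and 9.37 for uncv null 2, and no marker was at or below 3.65 in all arrays. Fap, a fibroblast surface protease, lay furthest from wild type among them, at 7.96, 7.37 and 6.10. The 7 muscle markers averaged 9.86, 9.18 and 8.49, and 6 of them lay below wild type in both arrays. The 5 tested keratinocyte markers averaged 11.4 for wild type, 11.4 for uncv null 1 and 11.7 for uncv null 2. The 4 tested endothelial markers averaged 5.64, 5.51 and 5.34, with 1 below wild type in both arrays and 3 split. The part of fibroblast, muscle or vessel content in the values of Mmp2 and Mmp14 was not tested.

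Mmp3, stromelysin, cleaves many matrix proteins and activates other members, and is known from wounded skin. Its probe set, 1418945_at, read 3.35 for wild type, 4.06 for uncv null 1 and 5.42 for uncv null 2. Both uncv null arrays were above wild type and above the Y-linked limit of 3.65, and wild type was below that limit. Since the wild type value was not shown to be above background, no fold is given. The mean over the 3 arrays was 4.28, so Mmp3 was not tested. As with Timp1, uncv null 2 was the higher of the uncv null arrays.

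The gelatinase Mmp9, known from wound-edge keratinocytes and neutrophils, was at or below 3.65 in all arrays by both of its probe sets, which ranged from 3.22 to 3.61. Mmp13, a collagenase of wound fibroblasts and bone, read 2.39 for wild type, 2.68 for uncv null 1 and 2.75 for uncv null 2. Wild type was the lowest of the 3 values, but all were under the limit, so their order says nothing of expression. Of 4 markers of cartilage and bone with a probe set, 0 were tested, and Col10a1 and Ibsp were under the limit in all arrays as well. The others were not: Sp7 read 4.41 for wild type, 4.45 for uncv null 1 and 4.16 for uncv null 2. Col2a1 read 5.86, 5.41 and 3.52, under the limit only for uncv null 2. Mmp11, known as stromelysin of the tissue around tumours and in remodelling stroma, read 4.73, 4.68 and 4.79, above the limit and within 0.07 of wild type in both arrays.

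Mmp3 and Mmp13 belong to a cluster of 10 metalloproteinase genes on mouse chromosome 9, of which 9 had a single-gene probe set. In 8 of these 9, the brightest probe set was at or below the limit in all 3 arrays, and Mmp3 was the exception. The 8 were Mmp13, Mmp12, Mmp1b, Mmp1a, Mmp10, Mmp8, Mmp20 and Mmp7. They include the macrophage elastase Mmp12, at 3.13 for wild type, 3.29 for uncv null 1 and 3.00 for uncv null 2, and the neutrophil collagenase Mmp8, at 2.80, 3.07 and 2.99. Of the 17 other metalloproteinase and TIMP genes listed, 12 had a single-gene probe set and 0 were tested. Mmp16, a membrane-type protease, read 5.24 for wild type, 5.01 for uncv null 1 and 4.05 for uncv null 2. It and Mmp24, Mmp19 and Timp4 are singled out after their values were seen as those above the limit in at least 1 array. Timp4 read 3.79, 3.87 and 4.05.

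**Figure D3:**
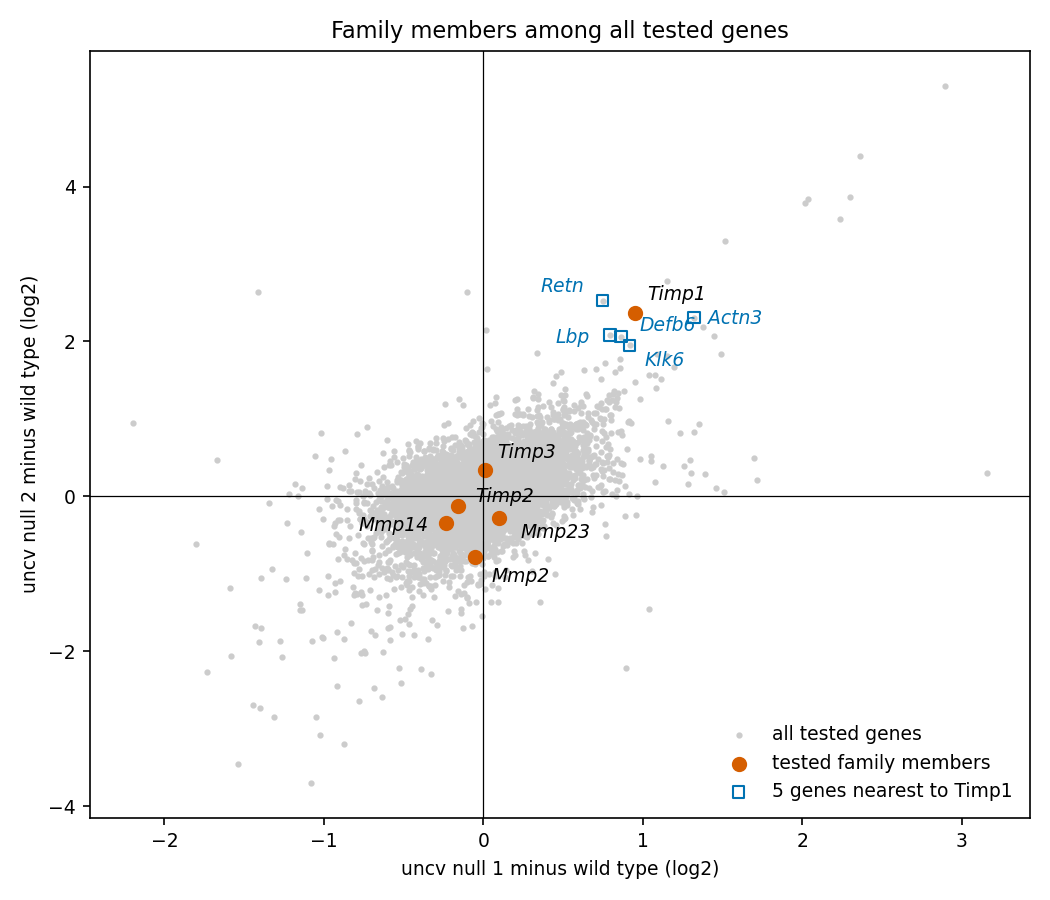
Each tested gene by its difference from wild type, for uncv null 1 (horizontal) and uncv null 2 (vertical), both in log2 units, with all 8456 genes in grey, the 6 tested family members in orange and the 5 genes nearest to Timp1 as blue squares. Timp1 lies at 0.95 and 2.37 outside the grey mass, and the other 5 members lie within it. Both axes share the wild type array, so the slope of the cloud is no sign of agreement.

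Markers of macrophages, neutrophils and adipocytes are given beside Timp1 and Mmp3. The fibroblast markers above belong beside them too, and they mostly went the other way. By the brightest probe sets, 6 of those 9 lay below wild type in both arrays and 1 above. Of 7 macrophage markers, all tested, 5 lay above wild type in both arrays, against 38.8% of all tested genes. The mean log2 level of the 7 was 6.58 for wild type, 6.70 for uncv null 1 and 7.04 for uncv null 2. Lyz2, lysozyme of macrophages and neutrophils, read 6.47, 6.72 and 7.52. Of 7 neutrophil markers with a probe set, 0 were tested, and 5 of these dim values lay above wild type in both arrays and 2 below. Without a filter, 33.9% of all genes lay above in both arrays and 29.2% below. The granule protein genes Camp, at 4.26, 4.84 and 5.38, and Ngp, at 4.08, 4.35 and 4.91, were highest for uncv null 2 as Timp1 was. Ltf, lactoferrin, which glands also make, went the other way at 5.93, 4.70 and 3.44, so the list's mean of 4.13, 4.16 and 4.12 hides opposite members. Csf3r, at 4.02, 4.06 and 4.48, was also highest for uncv null 2. Mpo, at 3.52, 3.79 and 3.58, was highest for uncv null 1. Elane, at 3.86, 3.82 and 3.60, read below wild type in both uncv null arrays. Cxcr2 was at or below 3.65 in all arrays. The 5 adipocyte markers were above wild type in both arrays, against 38.8% of all tested genes. Their mean was 7.85, 8.32 and 9.09. As with Timp1, uncv null 2 was the highest array for the mean of the macrophage markers, though not for Csf1r and Mrc1, and for the adipocyte markers. The part of these cells in the Timp1 and Mmp3 values was not tested.

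Genes that act with the family were read from lists. The limma fit called 0 members of any list, as it called 0% of all tested genes. Cytokines, receptors and transcription factors known to act on Timp1 and Mmp transcription numbered 27, of which 15 were tested. Of these, 9 lay above wild type in both arrays and 3 below, against the backgrounds of 38.8% and 26.4%, and the median difference was 0.37, with 0.30 for uncv null 1 and 0.46 for uncv null 2. Osmr, the oncostatin M receptor subunit, read 5.30 for wild type, 5.69 for uncv null 1 and 6.17 for uncv null 2. Stat3, the transcription factor downstream of it, read 7.74, 8.42 and 8.26, and the AP-1 subunit Fos 7.51, 8.22 and 7.93. Tgfb3, a growth factor of the TGF-beta family, was lower, at 6.58, 6.16 and 5.88. The ligands Osm, Il6, Il11, Lif and Tnf and the AP-1 subunits Fosb and Fosl1 were at or below 3.65 in all 3 arrays. Averaged over all its probe sets, Osmr lay at 0.29 in place of 0.63 and Stat3 at 0.32 in place of 0.60. Uncv null 2 was the higher uncv null array for Osmr, as for Timp1 and Mmp3, and uncv null 1 for Stat3 and Fos.

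The list of ADAM and ADAMTS metalloproteinases held 13 tested genes of 21. Of these, 9 lay above wild type in both arrays and 4 below, against 38.8% and 26.4% of all tested genes, with a median of 0.22. With quantile normalization, or with arrays centred on their medians, 8 lay above and 2 below. The shares over all genes were then 36.6% and 27.6%, or 34.8% and 28.7%. Adam17, the iRhom2-dependent sheddase, read 5.93 for wild type, 6.27 for uncv null 1 and 6.57 for uncv null 2. Its 3 probe sets did not share a side, and their average lay at -0.16 against 0.49 for the brightest. Adamts1, a proteoglycan-cleaving protease, read 6.61, 7.46 and 6.90. Adamts20, known from pigment cell migration, read 5.59, 6.04 and 6.12, and the membrane protease Adam9 7.29, 7.37 and 7.78. Their mean differences ranged from 0.28 for Adam9 to 0.57 ± 0.33 for Adamts1.

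Among 20 genes of activation, docking and other inhibition, 10 were tested, 2 lay above wild type in both arrays and 3 below, and the median was 0.05. Furin, the convertase that activates Mmp14 and Adam17 precursors, read 6.47 for wild type, 7.19 for uncv null 1 and 6.96 for uncv null 2, a mean difference of 0.60 ± 0.27. Reck, a membrane-anchored inhibitor of Mmp2, Mmp9 and Mmp14, read 8.16, 8.17 and 6.96, so uncv null 2 alone was low. Plau, the urokinase that starts plasmin formation, read 6.41, 6.34 and 7.21, with uncv null 2 alone high, and its mean difference of 0.36 was 0.14 when both of its probe sets were averaged. Spint1, an inhibitor of serine proteases such as matriptase, read 7.93, 8.07 and 8.45. The other 5 tested genes of this list were split. The backgrounds over all tested genes were 38.8% above and 26.4% below, and the counts of this list are not read as a result.

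Of 26 matrix substrates, 22 were tested, 5 lay above wild type in both arrays and 10 below. Of all tested genes, 38.8% lay above and 26.4% below. Their median was -0.11, with 0.03 for uncv null 1 and -0.25 for uncv null 2. Eln, elastin, read 9.76 for wild type, 9.71 for uncv null 1 and 8.40 for uncv null 2, and Vcan, the proteoglycan versican, 9.13, 8.91 and 8.32. Tnc, the wound matrix protein tenascin-C, read 8.24, 8.42 and 9.10. Col4a2, a basement membrane collagen chain, read 9.26, 9.69 and 9.82. Averaged over probe sets, Vcan lay at -0.16 in place of -0.51 and Tnc at 0.34 in place of 0.52. The list shares 4 genes with the fibroblast markers. As for Mmp2, the lower values of Eln and Vcan were mostly those of uncv null 2.

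**Figure D4:**
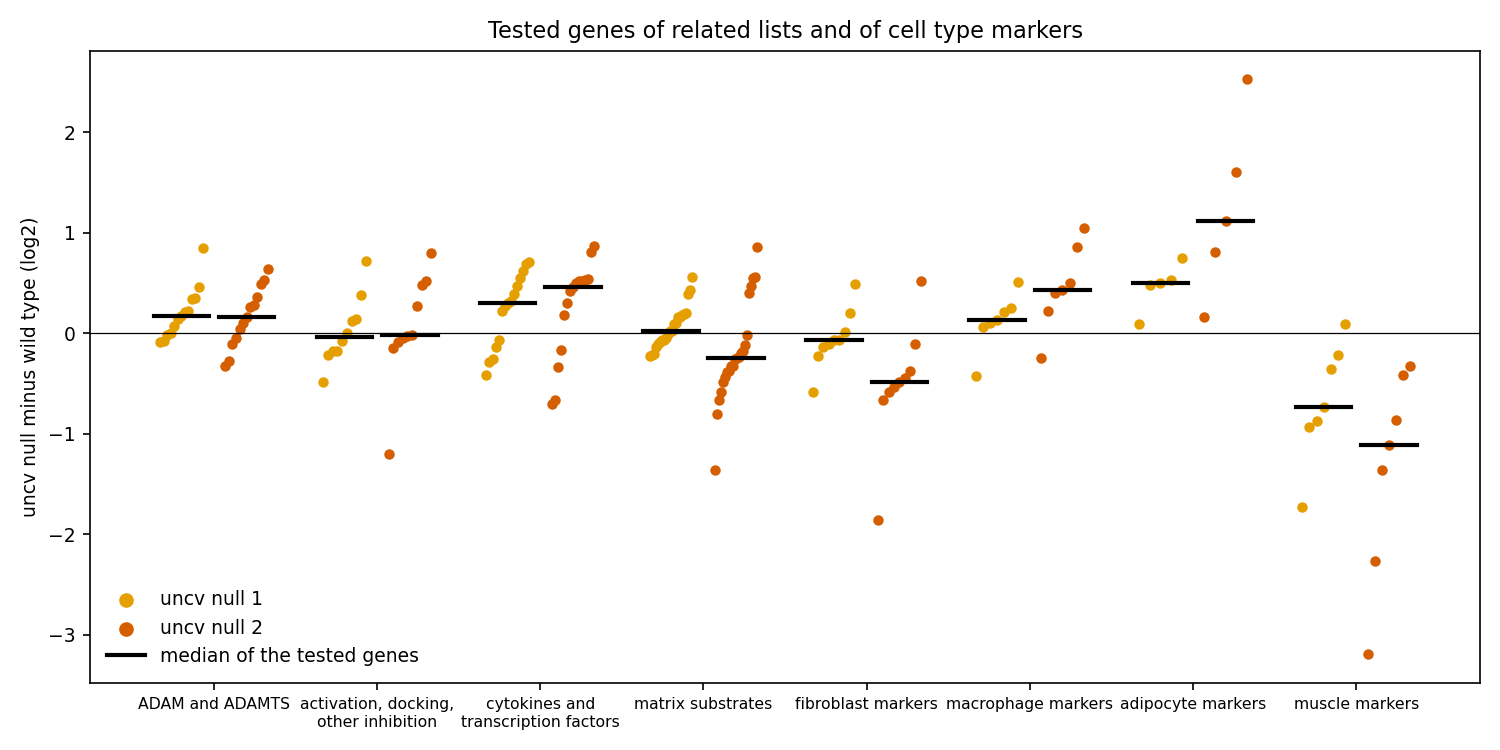
Difference from wild type on the log2 scale for each tested gene of 4 lists related to the family and of 4 cell type marker lists, with uncv null 1 in light and uncv null 2 in dark orange and black bars for the median of each list in each array. The fibroblast medians are -0.07 and -0.49 and the muscle medians -0.73 and -1.11, while the adipocyte medians are 0.50 and 1.12.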

How the data were processed

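Total RNA of dorsal skin was hybridised to 1-colour arrays, 1 per mouse. The authors deposited log2 values made by RMA, per the submitters' processing notes. The software, the version and the background step of RMA are not stated in those notes. Values between 1.96 and 13.1 fit a log2 scale. Detection calls were not used here, and the number of arrays limits the precision.

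Of 45101 probe sets, 64 controls were kept apart, and 34945 had 1 gene symbol, 932 several and 9160 none. Entrez identifiers of 34741 matched the reference gene table, with 0 symbols changed. The 13559 probe sets with a mean of at least 5 were fitted with limma 3.58.1 in R 4.3.3 (lmFit, eBayes, Benjamini-Hochberg over all of them). The spread has 1 residual degree of freedom and 4.75 prior ones, with the lone wild type array taken to have the same variance as the others. The fit was also run on simulated data, with spread drawn from its own prior and without the control offsets seen here. That run does not show what the fit can call in these arrays.

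The members and lists were chosen with earlier results of these data known. Named genes are all members, the 4 tested genes of each related list with the largest absolute mean difference, and the 5 genes nearest to Timp1 by Euclidean distance, and other names were chosen after their values were seen. Sequences are from RefSeq tables of GRCm38.p6, and no build is named for the probe sets. The alternatives changed the filter, the normalization, the choice of probe sets or the variance model, or left out an uncv null array.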

Additional observations from a re-analysis of the deposited data

How the results depend on the processing

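The limma fit called 0 genes higher and 0 lower under every filter, normalization, probe set rule and variance model tried. With 1 uncv null array left out no spread remains, so only values are given. Of the counts over all genes, those above and below wild type in both arrays were 6165 and 5308 of 18193 without a filter. They were 1443 and 962 of 3627 where a mean of 7 was required, and 2157 of 6259 lay above with the mean of probe sets. The shares above were 33.9%, 39.8% and 34.5%, against 38.8% of 8456 in the main setting. The shares below were 29.2%, 26.5% and 28.6%, against 26.4%. The counts thus moved mostly with the number of genes tested. The genes at least 2-fold above and below in both arrays numbered 6 and 5 where a mean of 7 was required, and 16 below with probe sets carrying _s_, _x_ or _a_ left out. With 1 uncv null array alone, 38 to 130 genes lay 2-fold above, 42 to 164 lay 2-fold below, 4526 to 4976 above and 3480 to 3930 below. Tested members above wild type in both arrays were 4 without a filter, 1 where a mean of 7 was required and 1 when probe sets were averaged. The 4 were Timp1, Timp3, Mmp3 and Mmp13, and Mmp13 read under the Y-linked limit in all arrays. Where a mean of 7 was required, Timp1 itself, with a mean of 6.26, was not tested, and Timp3 was the 1 left. When probe sets were averaged, Timp3 changed sign and Timp1 was the 1 left. The causes of the shifts in the shares over all genes were not tested. Timp1 ranged from 0.95 to 2.37, Mmp2 from -0.78 to -0.05, Mmp14 from -0.34 to -0.23 and Timp2 from -0.37 to -0.12, with no change of sign. Timp3 was at -0.07 with the mean of probe sets, and Mmp23 at 0.10 without uncv null 2. Among the lists, whose alternatives were added after seeing the data, the cytokine list had medians from 0.20 to 0.46 and the ADAM list from 0.13 to 0.23. The activation list changed sign under 4 alternatives, from -0.06 to 0.12, and the substrate list was at 0.03 without uncv null 2. No paired analysis was possible because the wild type label carries no replicate number and the groups share no pairs.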
